A study of Mus musculus with 4 samples.

Results

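Replication-dependent histone genes were examined in sorted mouse bone marrow cells, as the genes whose symbol starts with H1f, H2ac, H2bc, H3c or H4c followed by a number. The rule took 29 of the 22180 genes that had a probe set with exactly 1 gene symbol: 8 genes of linker histone H1, 6 of H2A, 8 of H2B and 7 of H4. It took 0 of the 12 H3 genes with such symbols in RefSeq, because every H3 probe set carried the symbols of several H3 genes. The cells came from the bone marrow of mice aged 2 months with 4 genotypes: WT, Fancd2KO (Fancd2 knocked out), Foxo3aKO (Foxo3a knocked out) and DKO, which lacks both genes. Each genotype was measured on 1 Affymetrix Mouse Gene 2.0 ST array. The sort kept cells negative for lineage markers and CD34 and positive for c-Kit and Sca-1, a gate for haematopoietic stem cells that the labels also call SLAM cells, although no SLAM family marker is listed. Neither the knockout alleles, nor the number of mice or cells behind an array, nor the priming of the RNA is given in the sources used here. With 1 array per genotype no difference has a replicate check, so none has a p-value or a standard error.

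Histones are the proteins around which DNA is wrapped: H2A, H2B, H3 and H4 form the nucleosome core, and H1 binds the linker DNA. The replication-dependent genes lie in clusters, have no introns, and are transcribed mainly in S phase, when new DNA must be packaged. Their mRNAs usually end in a stem-loop, bound by the protein Slbp, in place of a poly(A) tail. Replacement histones, made through the whole cell cycle, come from genes outside the clusters with ordinary polyadenylated mRNAs. Long-term haematopoietic stem cells are mostly quiescent. Fancd2 acts in the repair of DNA interstrand crosslinks, and Foxo3a is a forkhead transcription factor known for keeping stem cells quiescent.

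The label did not hold for every member. H1f10 is a replacement linker histone, and H1f6, H1f7, H1f8, H2ac1 and H2bc1 are known from germ cells, which left 23 genes of the replication-dependent kind. By their older names in RefSeq, 21 members belonged to the Hist1 cluster and 5 to the Hist2 cluster, while H1f7, H1f8 and H1f10 lay outside. Copies within a class are nearly identical. Of the 29 members, 15 also appeared among the symbols of probe sets shared by several genes, so probes of a probe set with 1 symbol may still detect a copy, and single values are uncertain. Of 68 RefSeq symbols that fit the rule, 39 had no probe set of their own and 37 of those appeared on shared probe sets. H1f0, the replacement linker histone of differentiated cells, was among the genes without one.

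The 4 arrays correlated with each other at 0.965 to 0.969 over 41345 probe sets. Fancd2 read 6.56 log2 on the WT array, 6.08 on Fancd2KO, 6.67 on Foxo3aKO and 5.84 on DKO, so it was lower on both arrays labelled as lacking it. Foxo3, the gene of Foxo3a, read 6.62, 6.72, 6.64 and 6.51 in that order, nearly level, so its signal did not separate the arrays labelled as lacking Foxo3a. Where these probe sets lie relative to the deleted parts was not known, so neither gene checks the labels. Of the stem cell markers 15 were measured and all reached the floor of 5.51 log2 used here, Kit at 10.41 to 10.67 log2 among them, but Cd34, against which cells were sorted, read 9.67 to 10.79. Background probe sets with 20 to 25 G or C bases had medians of 6.59 on WT, 6.51 on Fancd2KO, 6.06 on Foxo3aKO and 6.70 on DKO. The disagreement of probe sets was taken from 728 genes that had 2. For 95% of these genes, the 2 probe sets disagreed by less than 0.92 log2 about the difference of Fancd2KO from WT. The values were 0.94 for Foxo3aKO and 0.96 for DKO. Both probe sets of a gene were read on the same arrays. Variation between arrays, sorts or mice is therefore not measured by these values. Fewer cells of a type and less RNA per cell cannot be told apart in such samples.

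The members share promoter elements that the symbol rule did not use. RefSeq promoters (GRCm38.p6) were found for 27 of the 29 members, and the 150 bases before each start were searched on both strands. CCAAT, the CCAAT box, was present in 74.1% of member promoters and 24.5% of all 32843 promoters, and TATAAA, the TATA box, in 40.7% and 7.58%. Class by class, CCAAT was present in 6 of 6 H2A and 7 of 7 H2B promoters but 1 of 6 H4 promoters. The octamer ATTTGCAT, known from H2B promoters, was in 4 of 7 H2B promoters and in 0.999% of all promoters. GGTCC, part of an element of H4 promoters, was in 5 of 6 H4 promoters against 26.2% of all, and AAACACA, the H1 box, in 4 of 8 H1 promoters against 3.53% of all. TTTGGCGC, a form of the E2F site, was in 0 of 27 member promoters and 0.268% of all. The promoters of the 5 members at least 2-fold apart from WT follow, with H2bc3 and H4c12 as examples of their classes, with every match to these motifs in capitals, on either strand, and the start of the gene just after the last base. They are shown so that the motifs can be seen in place: 6 of the 7 hold CCAAT (not H4c12) and 5 of the 7 hold TATAAA (not H1f2 or H2ac15).
H1f1, chr13:23763518-23763667, plus strand: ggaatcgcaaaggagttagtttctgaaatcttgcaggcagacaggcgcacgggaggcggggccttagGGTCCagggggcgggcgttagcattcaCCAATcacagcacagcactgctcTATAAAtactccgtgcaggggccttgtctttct
H1f2, chr13:23738657-23738806, plus strand: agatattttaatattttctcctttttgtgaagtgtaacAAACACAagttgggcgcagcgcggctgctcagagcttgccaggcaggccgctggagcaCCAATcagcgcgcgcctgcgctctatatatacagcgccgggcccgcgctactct
H1f5, chr13:21780626-21780775, minus strand: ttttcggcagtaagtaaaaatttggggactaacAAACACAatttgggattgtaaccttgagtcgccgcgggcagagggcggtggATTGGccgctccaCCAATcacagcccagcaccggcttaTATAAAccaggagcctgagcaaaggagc
H2ac15, chr13:21753913-21754062, minus strand: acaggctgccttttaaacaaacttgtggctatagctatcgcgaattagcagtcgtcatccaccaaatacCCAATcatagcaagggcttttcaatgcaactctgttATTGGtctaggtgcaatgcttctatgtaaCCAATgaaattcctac
H2ac21, chr3:96219735-96219884, plus strand: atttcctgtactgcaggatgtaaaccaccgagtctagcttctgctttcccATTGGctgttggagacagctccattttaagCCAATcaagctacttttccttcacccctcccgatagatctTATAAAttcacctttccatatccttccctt
H2bc3, chr13:23746584-23746733, plus strand: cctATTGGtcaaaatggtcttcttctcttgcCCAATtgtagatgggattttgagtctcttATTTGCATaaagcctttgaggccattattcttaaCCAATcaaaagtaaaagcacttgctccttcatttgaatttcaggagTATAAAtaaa
H4c12, chr13:21750554-21750703, minus strand: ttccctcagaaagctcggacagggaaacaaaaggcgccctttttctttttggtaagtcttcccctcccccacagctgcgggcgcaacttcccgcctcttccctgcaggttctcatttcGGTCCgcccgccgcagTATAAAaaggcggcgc

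Histone signals were lower on the knockout arrays than on the WT array for most members. Over all 29 members, 23 were lower than WT in Fancd2KO, where 50% of all 22180 genes were lower. In Foxo3aKO 24 of 29 were lower against 51% of all genes, and in DKO 19 of 29 against 46.9%. The WT array was the highest of the 4 for 18 of 29 members, against 24.2% of all genes. All 3 comparisons share the WT array, so an offset of that array would enter each of them. The median difference over the 29 members was -0.36 log2 in Fancd2KO, -0.29 in Foxo3aKO and -0.22 in DKO.

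A floor at the median of all gene values, 5.51 log2, separated dim signals. Of the 29 members, 18 reached it on at least 1 array and 14 on all 4. H2ac1 and H4c14 reached it in WT alone, H2bc9 in WT and DKO, and H2bc21 on every array but DKO, so these 4 entered partly through the arrays on which they were high. The other 11 members, among them H1f6, H1f7, H1f8, H2ac12, H2bc1 and H4c2, stayed below it on all arrays and give little information. Over the 18 the medians were -0.47 in Fancd2KO, -0.56 in Foxo3aKO and -0.44 in DKO, beside -0.01, -0.04 and -0.03 over all 12041 genes above the floor. Without the 4 members that entered on some arrays only, the medians over the other 14 were -0.47, -0.66 and -0.31.

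**Figure D1:**
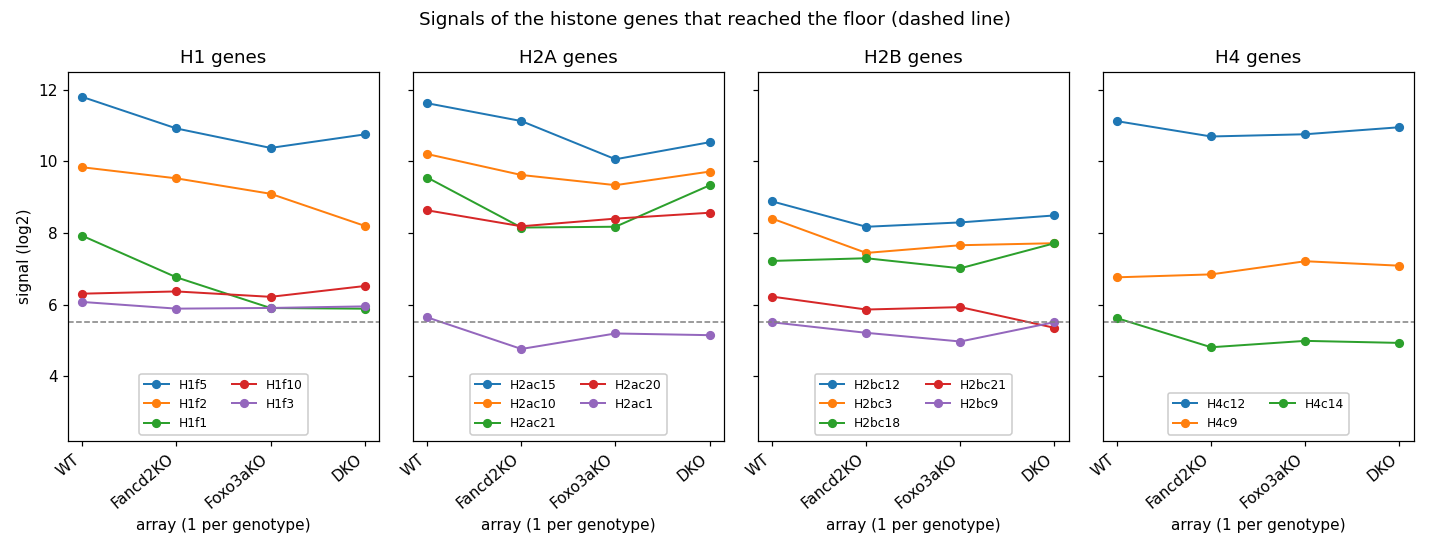
Signals in log2 units (vertical axis) of the 18 histone genes that reached the floor (dashed line at 5.51), by array (horizontal axis) and class, with 1 point per gene and array and lines joining the points of a gene. H1f5, H2ac15 and H1f2 start high in WT and are lower on every knockout array, while H2ac21 is low in both single knockouts and returns to 9.33 in DKO.

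Counted by size, 2 of the 18 members above the floor were at least 2-fold lower than WT in Fancd2KO, where 1.35% of all genes above the floor were. In Foxo3aKO there were 4 of 18 against 1.3%, and in DKO 4 of 18 against 1.72%. No member was at least 2-fold higher than WT on any knockout array, where 1.68%, 1.81% and 1.37% of all genes were in Fancd2KO, Foxo3aKO and DKO. The genes concerned were H1f1, H1f2, H1f5, H2ac15 and H2ac21, all 5 above the floor on all 4 arrays. At least 1 knockout array was 2-fold below WT for these 5 of 18 members and for 3.09% of all genes above the floor. H1f1 and H2ac15 were already known as large differences of the Foxo3aKO array when the members were chosen.

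Among the members, the largest differences in Foxo3aKO and DKO were those of the linker histone gene H1f1, while in Fancd2KO that of H2ac21 was larger. H1f1 (probe set 17285879), an H1 subtype with restricted expression, read 7.92 log2 on the WT array, 6.77 on Fancd2KO, 5.91 on Foxo3aKO and 5.89 on DKO. Its signal was therefore highest in WT, lower in Fancd2KO, and lower again and nearly equal on both arrays labelled as lacking Foxo3a. The differences from WT were -1.16, -2.02 and -2.03, that is 2.23-fold, 4.04-fold and 4.10-fold lower, and 0.814%, 0.108% and 0.233% of all genes above the floor were as low or lower in Fancd2KO, Foxo3aKO and DKO. H1f1 was the only member at least 2-fold below WT on all 3 knockout arrays. Its values on Foxo3aKO and DKO lay under the medians of background probe sets with 20 to 25 G or C bases there, 6.06 and 6.70. The G and C content of its own probe set was not known, and how far background limits these folds was not tested.

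H1f5 (probe set 17291005), a main linker histone of dividing cells, read 11.80 log2 on the WT array, 10.92 on Fancd2KO, 10.38 on Foxo3aKO and 10.75 on DKO. All knockout arrays were below WT, by -0.88, -1.42 and -1.05, and Foxo3aKO was lowest. H1f2 (probe set 17285859), which encodes another somatic H1 subtype, read 9.84 on the WT array, 9.53 on Fancd2KO, 9.10 on Foxo3aKO and 8.20 on DKO. It stepped down from WT through both single knockouts to the DKO array, which was 3.11-fold below WT. H1f3, a further somatic subtype, hardly differed between arrays, from 5.89 in Fancd2KO to 6.08 in WT. The replacement linker histone H1f10 stood at 6.31, 6.37, 6.22 and 6.52 log2 in WT, Fancd2KO, Foxo3aKO and DKO and did not follow the other H1 genes, with differences from WT of 0.06, -0.09 and 0.21.

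H2A genes, which encode a core histone, were lower than WT on every knockout array in 6 of 6 members, dim ones included, with the values as deposited. Of all 22180 genes, 24.2% were lower on all 3. The shared H2A probe sets, given below, lay on both sides of WT. Of the 5 H2A members above the floor, H2ac20 differed from WT in DKO by 0.0044 under quantile normalisation and 0.0029 under cyclic loess. With arrays shifted to equal G and C rich background, H2ac1 (0.07) and H2ac20 (0.29) of these 5 were above WT in Foxo3aKO but below the median of all genes there, which that shift moved to 0.50. H2ac15 (probe set 17291001) read 11.62 log2 on the WT array, 11.13 on Fancd2KO, 10.06 on Foxo3aKO and 10.54 on DKO. Its difference from WT was 2-fold or more in Foxo3aKO (-1.56) and DKO (-1.09) and smaller in Fancd2KO (-0.50), so the arrays labelled as lacking Foxo3a were the lowest. H2ac10 (probe set 17285819) stood at 10.21, 9.62, 9.34 and 9.72 in WT, Fancd2KO, Foxo3aKO and DKO, with the same order of arrays except that DKO lay above Fancd2KO. Its largest difference from WT was -0.87. H2ac20 of the Hist2 cluster ranged only from 8.19 in Fancd2KO to 8.64 in WT. H2ac1, known from testis, read 5.65 in WT and 4.77 to 5.20 on the knockout arrays, so it was under the floor on all of the latter.

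H2ac21 (probe set 17400539), which neighbours H2ac20 in the Hist2 cluster, was 2-fold lower in both single knockouts but not in DKO. It read 9.55 log2 on the WT array, 8.15 on Fancd2KO, 8.18 on Foxo3aKO and 9.33 on DKO. Both single knockouts were low and alike while WT and DKO were high, an order that H2ac20 had with much smaller steps. The differences from WT were -1.40, -1.37 and -0.22. A second probe set of H2ac21 (17408008), under the floor on every array, read 4.94, 4.47, 4.31 and 4.94, with the same order of high and low arrays but differences of -0.47 and -0.63 in the single knockouts. The histone variant gene H2ax, which is not a member, had a like order, with 11.19 on WT, 10.38 on Fancd2KO, 10.06 on Foxo3aKO and 11.02 on DKO. Of the 9 erythroid markers, 6 also read higher on WT and DKO than on both single knockouts, the carbonic anhydrase gene Car1 with 8.87, 7.45, 7.39 and 9.48 in the order of the arrays above among them. Klf1, Hemgn and Tfrc did not, and Klf1, an erythroid transcription factor, was lowest on DKO (6.51, 5.84, 6.06 and 5.59). The part of these markers in the H2ac21 values was not tested.

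H2B genes, partners of H2A in the nucleosome, gave differences from WT of less than 2-fold in all 5 members above the floor, as did most genes. H2bc3 (probe set 17285863) read 8.40 log2 on the WT array, 7.45 on Fancd2KO, 7.66 on Foxo3aKO and 7.72 on DKO, with the knockout arrays close together. Its differences from WT were -0.96, -0.74 and -0.69. H2bc12 (probe set 17285742) stood at 8.88, 8.18, 8.30 and 8.49 in the same order of arrays. Both were lowest in Fancd2KO, and their differences lay near or within the disagreement of probe sets. H2bc18 went the other way in DKO, reading 7.22 on WT, 7.30 on Fancd2KO, 7.02 on Foxo3aKO and 7.72 on DKO. H2bc21, a Hist2 gene whose mRNA is known to be polyadenylated in differentiated cells, read 6.23, 5.87, 5.93 and 5.36, lowest in DKO. H2bc9 lay at the floor, between 4.97 in Foxo3aKO and 5.51 in WT and DKO.

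H4 genes, which encode the most conserved core histone, likewise gave differences under 2-fold in all 3 members above the floor. H4c12 (probe set 17290999), whose neighbour in RefSeq is H2ac15, read 11.12 log2 on the WT array, 10.70 on Fancd2KO, 10.76 on Foxo3aKO and 10.95 on DKO. Its differences from WT were -0.43, -0.37 and -0.17, in the direction of its neighbour but smaller. H4c9 (probe set 17291053) was lowest in WT, at 6.77, and read 6.85 in Fancd2KO, 7.21 in Foxo3aKO and 7.09 in DKO. H4c14 of the Hist2 cluster read 5.63 in WT and 4.81 to 4.99 on the knockout arrays. By class over the members above the floor, the median differences in Fancd2KO, Foxo3aKO and DKO were -0.31, -0.74 and -1.05 for 5 H1 genes and -0.58, -0.87 and -0.49 for 5 H2A genes. They were -0.36, -0.54 and -0.39 for 5 H2B genes and -0.43, -0.37 and -0.17 for 3 H4 genes. These class medians include H2ac1, H2bc9, H2bc21 and H4c14, which reached the floor on some arrays only. The other H4 genes lay on opposite sides of WT, H4c12 below it and H4c9 above it by 0.08, 0.45 and 0.32. Over the 6 members that are replacement or germ cell forms the medians were -0.04, -0.07 and 0.14, but 4 of these 6 were under the floor on all arrays.

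**Figure D2:**
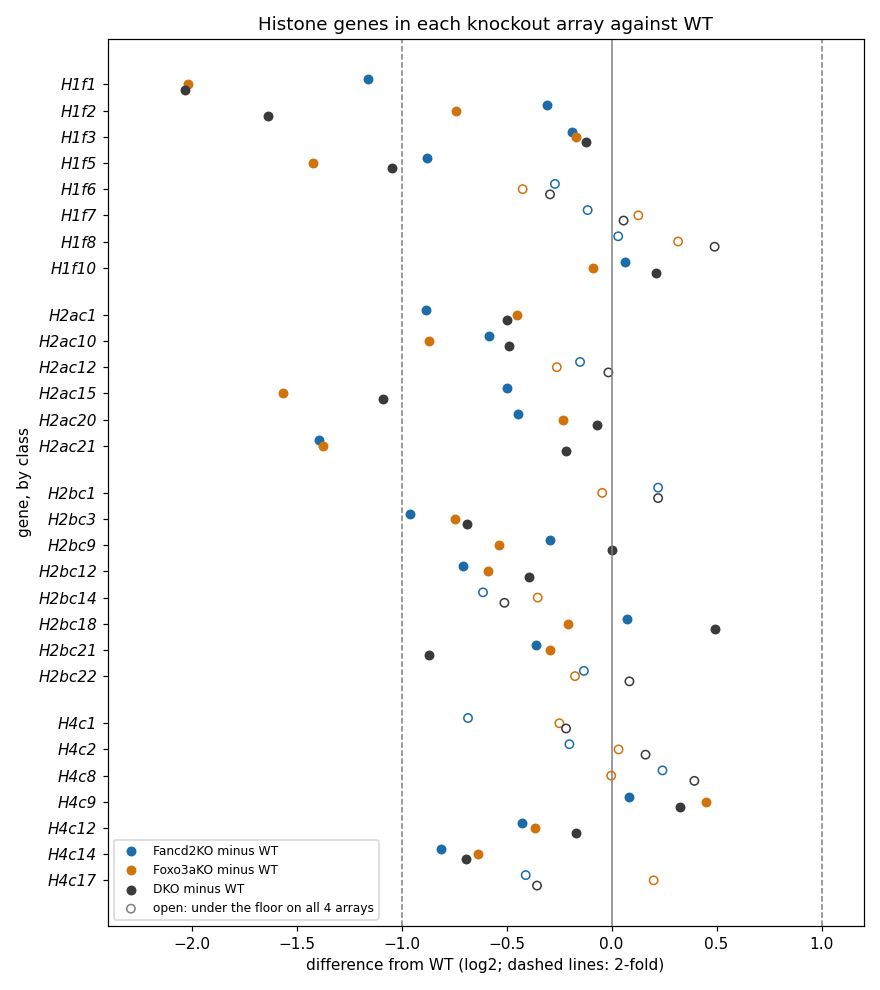
Difference from WT in log2 units (horizontal axis) of all 29 histone genes (vertical axis, by class), 1 point per knockout array, with dashed lines at 2-fold. Filled points are genes that reached the floor and open points those under it on all 4 arrays. H1f1, H1f2, H1f5, H2ac15 and H2ac21 pass the lower line on at least 1 array, and no gene passes the upper line.

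On the Foxo3aKO array the G and C rich background itself differed from WT by -0.52 log2, against -0.08 on Fancd2KO and 0.12 on DKO. Arrays were therefore also shifted so that this background was equal, an alternative added with the values in view. The median of the members in Foxo3aKO then turned to 0.0063, while that of all genes moved to 0.50. The shift adds the same amount to every gene of an array, so it keeps the distance between members and other genes by construction. It therefore cannot show an offset that differs with G and C content. Background probe sets with 3 to 8 G or C bases had medians of 2.00, 2.08, 1.99 and 2.06 on WT, Fancd2KO, Foxo3aKO and DKO. The lower background of Foxo3aKO was thus not seen in these. The sign against WT in Foxo3aKO rests on where the arrays are set equal. Fewer members, 16, reached the floor of the shifted values. With that shift H1f1 (-1.49) and H2ac15 (-1.04) remained at least 2-fold lower there, and H1f5 (-0.90) and H2ac21 (-0.85) did not. In DKO, where the background was higher than in WT, the members' median was -0.56 with the shift. The G and C content of single probe sets was not known, and the part of this background in the histone signals was not tested. The related gene lists and markers were not recomputed with the shift.

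Against the single knockouts, the DKO array showed no shared lower level. Of 29 members, 6 were lower in DKO than in Fancd2KO, where 47.5% of all genes were, and 9 were lower than in Foxo3aKO, where 44.6% were. Medians over the 18 members above the floor were 0.20 for DKO minus Fancd2KO and 0.18 for DKO minus Foxo3aKO, beside -0.02 and 0.03 over all genes above the floor. With arrays shifted to equal G and C rich background they were -0.00085 and -0.46, beside -0.22 and -0.62 over all genes. H1f2 was the 1 member at least 2-fold lower in DKO than in Fancd2KO (-1.33), where 1.51% of all genes above the floor were, and 0 of 18 were 2-fold lower than in Foxo3aKO, against 2.18%. H1f2 differed by -0.89 from Foxo3aKO. H2ac21 was the 1 member at least 2-fold higher, by 1.18 over Fancd2KO, against 1.5% of all genes, and by 1.16 over Foxo3aKO, against 1.18%. H1f1 differed by -0.88 from Fancd2KO and by -0.02 from Foxo3aKO.

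Probe sets with several histone symbols covered the genes that the rule left out, H3 among them. There were 38, of which 3 had the same values as another, and 20 of the 35 distinct ones reached the floor. None of their values can be given to a single gene, so they are named by number. Members and shared probe sets of a class partly read the same RNAs and are not independent.

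Relative to WT, 14 of the 20 were lower in each of Fancd2KO, Foxo3aKO and DKO, with medians of -0.33, -0.45 and -0.24. Of all genes above the floor, 51.9%, 55.4% and 53.4% were lower in that order. An H3 probe set with 4 symbols (17285680) read 8.40 log2 on the WT array, 7.22 on Fancd2KO, 6.80 on Foxo3aKO and 5.75 on DKO, a stepwise order like that of H1f2. An H2A probe set with 10 symbols (17285867) stood at 10.05, 9.10, 8.14 and 8.79, lowest in Foxo3aKO as was H2ac15. The H2B probe sets 17285691 with 12 symbols and 17290997 with 4, lay between 12.38 and 12.83 on all arrays, with differences from WT of -0.12 to -0.44.

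Other shared probe sets were higher in the single knockouts. An H2B probe set with 4 symbols (17285746) read 4.99 log2 on the WT array, 7.37 on Fancd2KO, 6.33 on Foxo3aKO and 4.71 on DKO. An H3 probe set with 8 symbols (17285842) stood at 3.91, 6.10, 5.18 and 4.35. These probe sets reached the floor only through arrays on which they were high, the H2B one on both single knockouts and the H3 one on Fancd2KO. A pair of H2B probe sets with 3 symbols each, 17285834 and 17285851, differed from WT in Fancd2KO by 1.16 and 1.26. In each of these 4, Fancd2KO was the highest array and Foxo3aKO the next. Some shared probe sets above the floor on all 4 arrays were higher than WT on every knockout array, DKO included. The H3 probe set 17291183 with 8 symbols read 6.58 log2 on WT, 7.49 on Fancd2KO, 7.93 on Foxo3aKO and 7.36 on DKO. The H2A probe set 17291204 with 10 symbols stood at 7.22, 7.85, 7.76 and 7.75 in the same order. In Fancd2KO 4 of the 20 shared probe sets were at least 2-fold higher than WT and 2 lower, in Foxo3aKO 3 and 2, and in DKO 0 and 3, where 1.68% and 1.35%, 1.81% and 1.3%, and 1.37% and 1.72% of all genes above the floor were. Over the 16 that reached the floor on all 4 arrays, these counts were 2 and 2, 1 and 2, and 0 and 2. Against Fancd2KO, 4 of the 20 were at least 2-fold lower in DKO, where 1.51% of all genes above the floor were. Among these 4 were 17285746 and 17285842, which reached the floor only through single knockout arrays. Probe sets of H2B thus lay on both sides of WT in Fancd2KO, those that reached the floor on all arrays included.

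**Figure D3:**
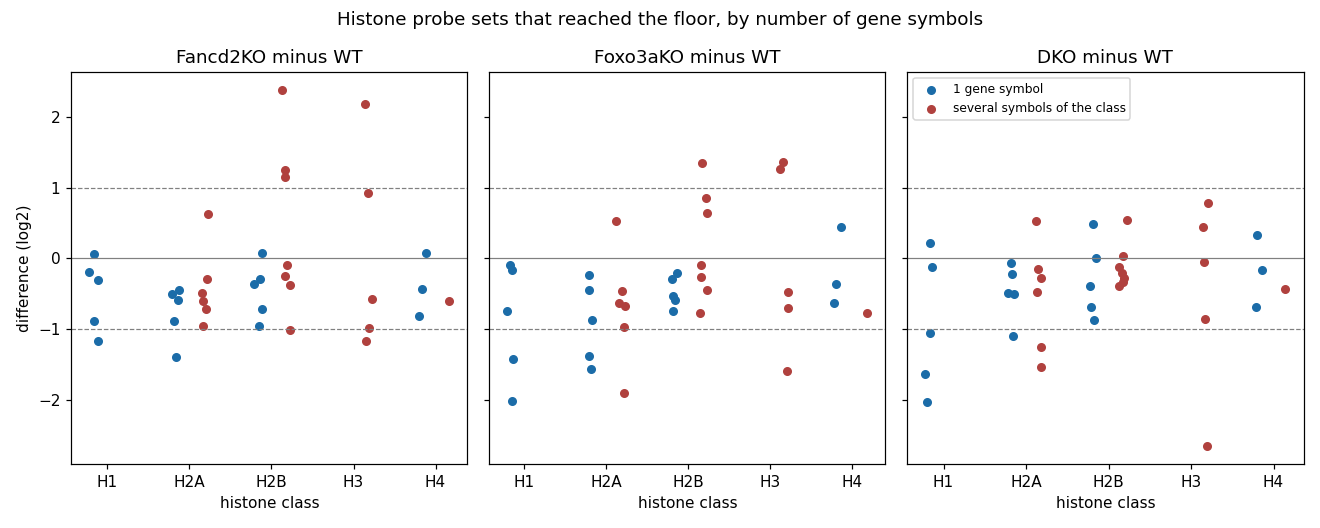
Difference from WT in log2 units (vertical axis) of histone probe sets that reached the floor, by class (horizontal axis), 1 panel per knockout array. Blue points carry 1 gene symbol and red points several symbols of the class. In Fancd2KO the red H2B and H3 points reach 2.38 and 2.18, while no blue point passes the upper dashed line at 2-fold.

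Genes that serve the histones had list medians closer to WT than those of the histone members. Above the floor were 17 measured genes for histone transcription and mRNA processing. Of these, 10 were lower on the Fancd2KO array than on WT, 12 on Foxo3aKO and 9 on DKO. Of all genes above the floor, 51.9%, 55.4% and 53.4% were lower in that order. Medians over the 17 were -0.04, -0.12 and -0.0024, and none was 2-fold apart. Of all genes above the floor, 1.35% were 2-fold lower and 1.68% higher in Fancd2KO, with like shares in Foxo3aKO and DKO. None in this list, or in the chaperone, S phase and mitosis lists, is thus near the share of all genes. The stem-loop binding protein Slbp read 8.86 log2 on the WT array, 8.79 on Fancd2KO, 8.87 on Foxo3aKO and 8.69 on DKO, nearly level. Npat, the coactivator of histone gene transcription, read 7.80, 7.97, 7.67 and 7.28, and Casp8ap2 (FLASH), which joins histone transcription and processing, 8.18, 7.84, 7.93 and 7.57, both lowest in DKO. Tut7, a uridylating enzyme that acts on histone mRNA in its decay, was higher by 0.62 in Fancd2KO and 0.78 in Foxo3aKO and differed by -0.06 in DKO. All these differences lie within the disagreement of probe sets.

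Histone chaperones, which carry histones to DNA, had medians of 0.07, -0.12 and -0.05 over 24 genes, none 2-fold apart. The largest were in Foxo3aKO: Anp32e, a chaperone of H2A.Z, at -0.75 and Chaf1b, a subunit of the chromatin assembly factor of replication, at -0.63. Of 6 genes above the floor listed as variant histones, 4 were lower on Fancd2KO than on WT, 5 on Foxo3aKO and 5 on DKO. Their medians were -0.09, -0.35 and -0.26. H2aw was among these 6, although its older name, Hist3h2a, is that of a histone cluster gene. H2ax, whose product marks DNA breaks when phosphorylated, was the 1 past 2-fold, at -1.13 in Foxo3aKO. Macroh2a1, which encodes the large variant macroH2A, differed by -0.27, -0.48 and -0.32, and the centromeric H3 variant Cenpa by 0.66, 0.10 and 0.08.

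Cell cycle genes were close to WT on the same arrays. S phase genes had medians of 0.12 in Fancd2KO, -0.11 in Foxo3aKO and -0.03 in DKO over 41 genes, of which 15, 24 and 21 were lower and none was 2-fold apart. Their largest differences were those of the origin recognition gene Orc1 (0.82 in Fancd2KO), the single-strand binding gene Rpa2 (0.82 in Fancd2KO) and Uhrf1, which recognises hemimethylated DNA (-0.80 in Foxo3aKO). Mitosis genes had medians of -0.02, 0.01 and -0.07 over 24 genes, also with none 2-fold apart. The S phase medians thus lay on both sides of 0, above it in Fancd2KO and below it in Foxo3aKO and DKO. The share of cells in S phase was not measured, and its part in the histone signals was not tested.

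**Figure D4:**
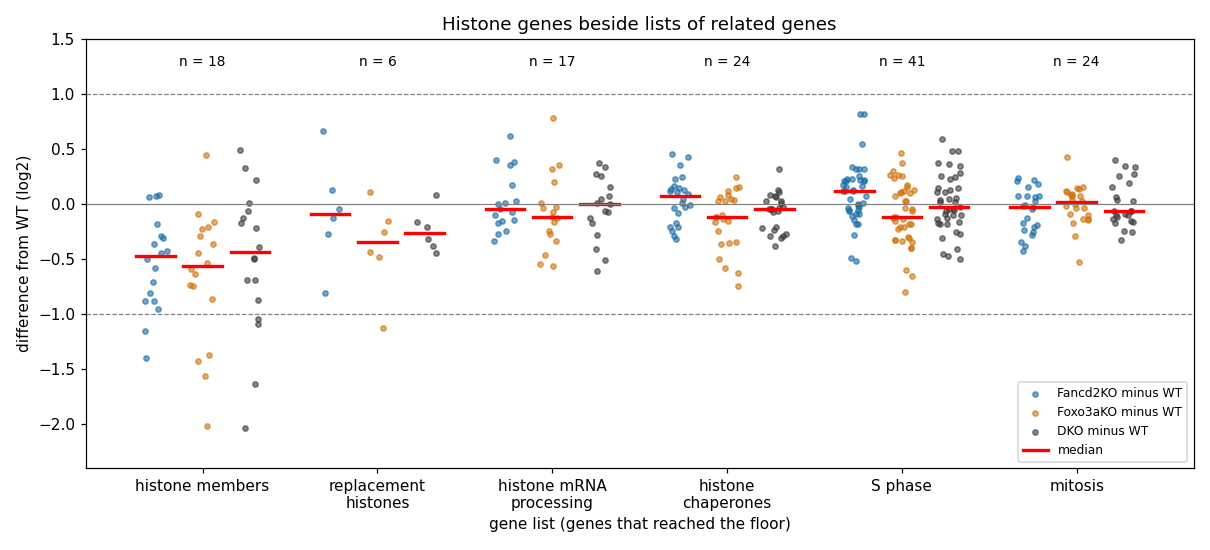
Difference from WT in log2 units (vertical axis) for genes above the floor in the histone members and 5 related lists (horizontal axis), 1 point per gene and knockout array, with the median as a red bar and n the number of genes. The histone medians lie between -0.44 and -0.56, and those of the S phase list between -0.11 and 0.12. Some histone members reached the floor only on arrays where they were high. Over the 14 above it on all 4 arrays, the medians were -0.47 in Fancd2KO, -0.66 in Foxo3aKO and -0.31 in DKO.

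The marker lists of several blood cell types stood below WT on the arrays where the histone genes did. Of 9 erythroid markers, all above the floor, 9 were lower on the Fancd2KO array than on WT, 8 on Foxo3aKO and 6 on DKO, with medians of -0.58, -0.53 and -0.24. The log2 of their summed signal was 11.79 on WT, 11.38 on Fancd2KO, 11.38 on Foxo3aKO and 11.89 on DKO. Of 9 eosinophil, basophil and mast cell markers above the floor, 9, 6 and 8 were lower, with medians of -1.13, -0.50 and -1.63, led by the eosinophil granule gene Prg3 at -3.53 in DKO. The 3 that were higher in Foxo3aKO, by 0.27 to 0.85, were basophil or mast cell genes. The summed signal of all 10 was 13.06, 11.50, 12.41 and 11.24 log2, and 1 was under the floor on all arrays. Progenitor genes were split, with 10, 8 and 7 of 13 lower and medians of -0.51, -0.06 and -0.43. In DKO they ran from -3.12 for Dntt, the lymphoid enzyme that adds nucleotides to recombining receptor genes, to 1.01 for Elane, neutrophil elastase, with summed signals of 13.25, 13.20, 13.23 and 13.38. Neutrophil markers went opposite ways in the single knockouts, with medians of -0.44, 0.41 and -0.55 over 12 genes, summed signals of 15.08, 14.73, 15.39 and 14.66 and all 12 above the floor, although the sort excluded cells with lineage markers. Monocyte markers had medians of -0.49, 0.44 and 1.27 over 11 genes, B cell markers -0.10, -0.41 and -0.82 over 8, and megakaryocyte markers -0.03, -0.42 and -0.15 over 7. T and NK cell markers had medians of 0.05, 0.26 and 0.06 over 6 genes, with 3 further ones under the floor on all arrays. Stem cell markers had medians of 0.06, -0.10 and 0.03 over 15 genes. No marker was listed at 0. The part of other cells in the histone signals was not tested.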

How the data were processed

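RNA of sorted bone marrow cells from 4 genotypes was measured on 1 array each. The deposited table holds log2 expression values made by the authors for 41345 probe sets. Affymetrix Expression Console was used, per the submitters' processing notes, with its version, summarisation and normalisation not given in the sources used here. Names came from the array platform's annotation: 23521 probe sets had 1 gene symbol, 1814 several and 16010 none. All 29 members were found in RefSeq (GRCm38.p6) under the same symbol. Of several probe sets of a gene, the brightest over the 4 arrays stood for it. A gene was counted when its highest value reached 5.51 log2, which 12041 genes did. Values were subtracted between arrays, and differences of at least 1 log2 (2-fold) were counted and set beside all genes. The calculation was tested on simulated data. Alternatives were normalisations (limma 3.58.1), floors, thresholds and probe set choices. The rule for genes named in full was the 3 brightest of a class, those past 2-fold and the forms that are not replication-dependent. Up to 4 genes of a related list and 3 of a marker list were named. Members and lists were chosen with earlier results of these data known. Slbp, Npat, Kit, Cd34, Klf1, Tfrc, Elane and the shared probe sets given singly were named after their values were seen. Proteins were not analysed here. Python 3.11.15, numpy 2.4.6 and pandas 2.3.3 were used.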

Additional observations from a re-analysis of the deposited data

Results flagged for a closer look

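H2ac21 was the 1 member whose signal moved in opposite directions with the same loss, at least 2-fold each way, a pattern held by 0.623% of all genes above the floor. Loss of Foxo3a went with a difference of -1.37 log2 where Fancd2 was present (Foxo3aKO minus WT) and of 1.18 where it was absent (DKO minus Fancd2KO). Loss of Fancd2 went with -1.40 where Foxo3a was present (Fancd2KO minus WT) and with 1.16 where it was absent (DKO minus Foxo3aKO). These 4 differences come from the same 4 arrays and share them in pairs, and the difference between backgrounds was not tested. With the mean of both probe sets of H2ac21 each of the 4 was smaller, at -1.003, 0.83, -0.93 and 0.90 in the order above, so 3 of the 4 were then under 2-fold. With arrays shifted to equal G and C rich background they were -0.85, 0.98, -1.315 and 0.51 in the same order. Again 3 of the 4 were under 2-fold, so neither loss then gave 2-fold differences both ways.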

How the results depend on the processing

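Of 65 recounts of members at least 2-fold apart, 45 stayed within 1.5 times the count given, and of 55 recomputed medians 42 moved by less than 0.1 log2. In the order Fancd2KO, Foxo3aKO and DKO against WT, then DKO against Fancd2KO and Foxo3aKO, the counts of 2, 4, 4, 2 and 1 became 7, 9, 7, 4 and 3 at 1.5-fold, 0, 1, 2, 0 and 0 at 3-fold, and 8, 9, 7, 6 and 5 with the shared probe sets included. Of the last, 4 were lower and 4 higher in Fancd2KO, 6 and 3 in Foxo3aKO, and 7 and 0 in DKO. For DKO they were 5 and 1 against Fancd2KO, and 4 and 1 against Foxo3aKO. Shares of all genes at 1.5-fold and 3-fold were not counted, so the counts at these thresholds stand without a comparison. With the mean of all probe sets of a gene the count was 1 in Fancd2KO against WT, 1 in DKO against Fancd2KO and 0 in DKO against Foxo3aKO. With arrays shifted to equal G and C rich background it was 2 in Foxo3aKO against WT, both lower. In DKO that shift gave 2 against Fancd2KO and 2 against Foxo3aKO, all lower. Without it there were 1 lower and 1 higher against Fancd2KO, and 1 higher against Foxo3aKO. The shares of all genes past 2-fold with the shift were not counted. Under that shift the medians in the same order of comparisons, from Foxo3aKO against WT on, were 0.0063, -0.56, -0.00085 and -0.46, over 16 members. The sign of 3 turned, and the shift moves all genes alike, to medians of 0.50, -0.14, -0.22 and -0.62. Against WT the medians were -0.36, -0.29 and -0.22 without a floor. With the floor at the upper quartile they were -0.58 in Fancd2KO and -0.74 in Foxo3aKO. With values under the floor raised to it they were -0.33 in Foxo3aKO, -0.19 in DKO and 0.079 in DKO against Fancd2KO, and the median in DKO with shared probe sets was -0.28. The cause was not tested beyond what each setting itself changes. H1f1 stayed at least 2-fold lower than WT in each knockout under all 6 alternatives tried for single genes, and no member past 2-fold changed direction. H1f5 in DKO fell short of 2-fold with quantile normalisation (-0.97) and cyclic loess (-0.98), which took the count there from 4 to 3. No paired analysis was possible because each genotype had 1 array, and for that reason no replicate could be left out. Dim probe sets, near-identical copies and 1 array per genotype limit every value.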
